A study of Caenorhabditis elegans with 2 samples.

Results

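The entries described here are stretches of LIN-13 ChIP-seq enrichment beside snoRNA and snRNA genes of Caenorhabditis elegans. An entry of the pooled list was a member when its summit, the base of highest enrichment, lay within 500 bp of a gene annotated as snoRNA or snRNA and over 500 bp from every tRNA gene. By this rule 321 of 29973 nuclear entries were members. The pooled list contains peaks together with background. A shorter thresholded list is the authors' list after a threshold on reproducibility between replicates. It holds the 3040 pooled entries of highest signal. Being in it thus reflects pooled rank, and an entry in it need not be strong in each replicate. Of the 321 members, 131 were in the thresholded list and 190 were not. All counts of genes with an entry below take members only, except where entries near tRNA genes are said to be included. The material was whole L2 larvae, pooled male and female, of strain OP49 which carries the allele unc119(ed3) and the insertion wgIs49, in which lin-13 is fused to TY1, EGFP and FLAG tags and unc119 is included. All larvae carried the transgene, so the design has 1 group, with 2 biological replicates and no untagged group. A control experiment named in the labels was not analysed here. Whole animals were used, and peak lists carry no expression values, so no tissue could be checked by its markers.

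LIN-13 carries zinc fingers and belongs to the synMuv B group of chromatin regulators, which restrain vulval fate in C. elegans. Small nuclear RNAs (snRNAs) form the core of the spliceosome, and the SL1 and SL2 RNAs donate the spliced leader in trans-splicing, SL2 mainly to downstream genes of operons. Small nucleolar RNAs (snoRNAs) guide the modification of ribosomal and spliceosomal RNA. Some of these genes stand alone with their own promoter, and others lie in the introns of protein-coding genes.

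The sequences before the genes are shown first because 2 short elements recurred in them. In the first set, capitals mark GCGGAAC. In the second set, capitals mark GTTCNANNC, which covers the core of the B box, an internal promoter element of tRNA genes, and TGGCNNAG, which resembles the A box of the same promoters. Each line holds the 100 bases before the annotated 5′ end of a gene and its first 10 bases, on the gene's strand, from the WBcel235 (ce11) reference genome of RefSeq. The windows are chrII:15025884-15025993 (minus strand) for Y53F4B.47, chrIII:10989579-10989688 (plus) for R07E5.16, chrIII:12250365-12250474 (plus) for sls-2.8, chrII:14018432-14018541 (minus) for F01D5.12, chrV:19643178-19643287 (minus) for Y43F8C.22, chrV:15191084-15191193 (minus) for Y75B12B.12, chrII:10840217-10840326 (plus) for M106.6 and chrV:11314158-11314267 (plus) for T03F7.8. All 8 genes had a thresholded entry beside them. The last line is the whole SL2 RNA gene of highest rank, sls-2.1, at chrII:5844865-5844974 (plus), with the start of its spliced leader in capitals.
Y53F4B.47: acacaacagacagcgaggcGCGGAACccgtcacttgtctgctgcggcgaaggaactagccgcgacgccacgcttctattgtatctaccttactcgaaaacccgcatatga
R07E5.16: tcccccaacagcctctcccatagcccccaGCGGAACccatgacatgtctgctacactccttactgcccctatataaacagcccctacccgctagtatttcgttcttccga
sls-2.8: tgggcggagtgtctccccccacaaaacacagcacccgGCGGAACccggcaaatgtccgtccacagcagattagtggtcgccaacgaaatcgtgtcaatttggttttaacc
F01D5.12: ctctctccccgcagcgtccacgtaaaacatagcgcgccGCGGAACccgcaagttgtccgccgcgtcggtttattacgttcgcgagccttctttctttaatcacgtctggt
Y43F8C.22: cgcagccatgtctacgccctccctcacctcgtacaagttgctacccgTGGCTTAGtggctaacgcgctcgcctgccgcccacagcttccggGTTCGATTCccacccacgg
Y75B12B.12: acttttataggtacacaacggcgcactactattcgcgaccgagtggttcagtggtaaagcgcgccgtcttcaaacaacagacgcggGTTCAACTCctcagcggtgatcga
M106.6: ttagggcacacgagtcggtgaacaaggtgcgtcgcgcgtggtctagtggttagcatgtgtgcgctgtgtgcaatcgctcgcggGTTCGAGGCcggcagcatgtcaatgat
T03F7.8: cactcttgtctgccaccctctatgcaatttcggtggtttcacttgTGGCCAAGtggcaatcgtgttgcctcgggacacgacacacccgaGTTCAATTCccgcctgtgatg
sls-2.1: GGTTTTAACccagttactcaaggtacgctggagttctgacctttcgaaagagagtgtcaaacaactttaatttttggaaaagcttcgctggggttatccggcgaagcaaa

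The share of members in the thresholded list was 40.8% (131 of 321; Wilson 95% interval 35.6 to 46.3), beside 10.1% of all nuclear pooled entries and 9.72% of the entries that were not members (2882 of 29652). Members whose nearest gene was an snRNA gene gave 31 of 68 (45.6%, interval 34.3 to 57.3), and those nearest to an snoRNA gene gave 100 of 253 (39.5%, interval 33.7 to 45.7). These 2 intervals overlap. Intervals cover counting error only, over entries that come from the same pair of libraries, and with 1 group no test between conditions was possible.

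Many of these genes lie close to protein-coding promoters, taken to reach from 1000 bp before an annotated start to 200 bp past it. Inside such promoters, 59 of 100 members were thresholded (59.0%, interval 49.2 to 68.1), beside 21.7% of all nuclear entries there. Outside them, 72 of 221 members were thresholded (32.6%, interval 26.7 to 39.0), beside 5.84% of all nuclear entries outside promoters. The higher share among members was thus present on both sides of the promoter boundary. Of the thresholded members 45.0% lay in promoters (59 of 131), beside 57.9% of the other thresholded nuclear peaks (1668 of 2882).

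The summits of thresholded members gathered just before the 5′ end of the snoRNA or snRNA gene. Of the 131, 97 lay upstream of the nearest gene, 16 inside it and 18 beyond its 3′ end, and the upstream ones had a median distance of 50 bp (interquartile range 30 to 86). Of the other 190 members, 75 lay upstream, 32 inside and 83 beyond the 3′ end, and the upstream ones had a median distance of 169 bp. A window of 1 to 100 bp upstream held 77 thresholded members (58.8%) and 27 other members (14.2%).

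**Figure D1:**
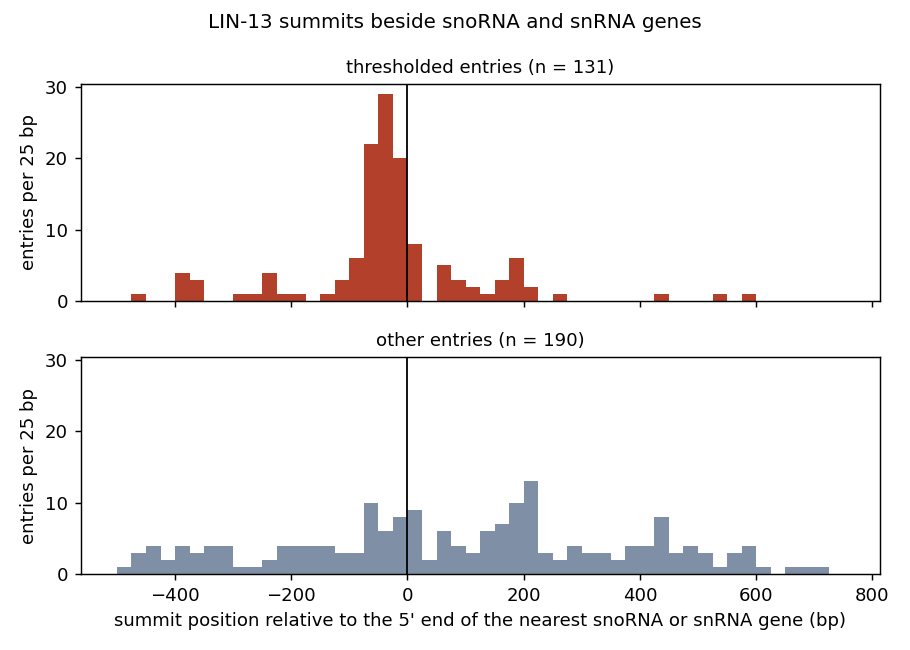
Histogram of summit positions relative to the 5′ end of the nearest snoRNA or snRNA gene (x axis, bp, negative values upstream; y axis, entries per 25 bp), for 131 thresholded entries (top) and 190 other entries (bottom). Thresholded summits pile up in the 100 bp upstream, which hold 77 of them, and the other entries are spread over the whole range.

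Read the other way, 49 of 63 members with a summit 1 to 50 bp upstream were thresholded (77.8%, interval 66.1 to 86.3), and 28 of 41 at 51 to 100 bp (68.3%, interval 53.0 to 80.4). Farther upstream the counts were 5 of 20 over 100 and up to 200 bp and 15 of 48 beyond 200 bp. On the other side of the 5′ end, the first 100 bp gave 16 of 37 and the next 100 bp gave 13 of 39. Beyond 200 bp downstream 5 of 73 members were thresholded (6.85%, interval 2.96 to 15.1), an interval that includes the 10.1% of all nuclear entries. Outside protein-coding promoters, the 1 to 100 bp window gave 46 of 69 (66.7%, interval 54.9 to 76.6), against 26 of 152 at all other positions (17.1%, interval 11.9 to 23.9).

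**Figure D2:**
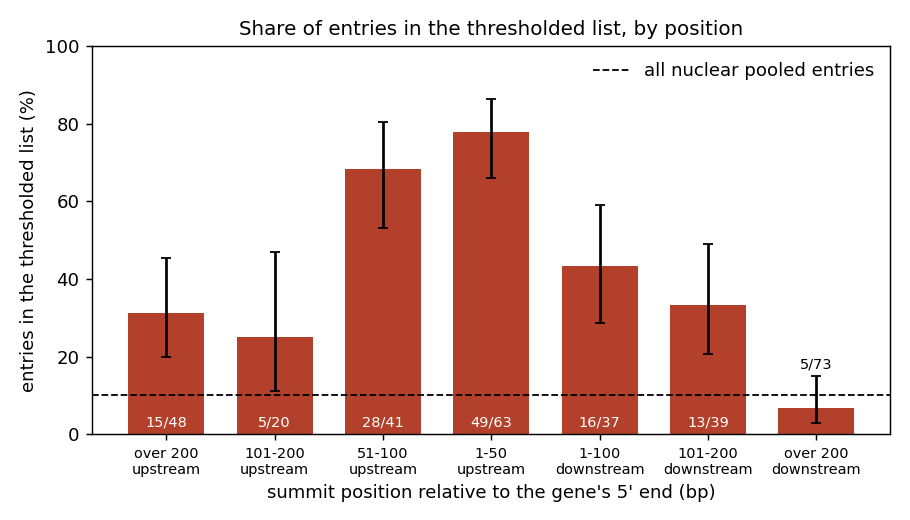
Share of member entries in the thresholded list (y axis, %) by summit position relative to the gene's 5′ end (x axis, bp). Bars give the share, error bars the Wilson 95% interval, numbers the counts, and the dashed line the 10.1% of all nuclear pooled entries; the 2 bins within 100 bp upstream stand highest at 68.3% and 77.8%.

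By signal, thresholded members ranked from 42 to 2994 in the pooled list, with a median of 1051, and other members from 3049 to 29898 with a median of 11929. The thresholded peaks that were not members had a median rank of 1557.5. The thresholded list was made of the pooled entries of highest signal, so the gap between the first pair of ranges comes from that rule. Just inside it lay entries beside Y37E3.20 (rank 2829), K02F3.15 (2912), M163.14 (2924), C47F8.9 (2937) and F37A8.7 (2994). Just outside lay those beside F25H5.9 (3049), R07E5.16 (3090), F19H8.7 (3150), F19H8.6 (3169) and R166.10 (3199). The last inside, beside F37A8.7, ranked 1538 in replicate 1 and 8847 in replicate 2, so its rank rests mainly on 1 replicate.

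The SL2 RNA genes, named sls-2, stood among the strongest members. The annotation has 18 of them, of which 15 had a member entry within 500 bp and 10 a thresholded one. With entries near tRNA genes included, these were 16 and 11, the added gene being sls-2.9. The entry at sls-2.1 (WBGene00004833), at chrII:5844614-5845183 with its summit 20 bp upstream of the gene, ranked 52 in the pooled list, 42 in replicate 1 and 51 in replicate 2. The entry at sls-2.4 on chromosome I (WBGene00004836) had its summit 23 bp upstream and ranked 53, 40 and 63 in the same lists. At sls-2.2 (WBGene00004834), at chrII:5543431-5543926, the summit lay inside the gene, 96 bp past its 5′ end, and ranked 69, 54 and 69. At sls-2.8 (WBGene00004840), at chrIII:12250291-12250627, the summit lay 22 bp upstream and ranked 117, 98 and 133. These 4 loci ranked in the first 133 of all 3 lists. The summits at sls-2.1, sls-2.4 and sls-2.8 also lay in protein-coding promoters, and the one at sls-2.2 did not. The summit at sls-2.4 stood 594 bp upstream of the start of egg-5. The summit at sls-2.8 stood 217 bp upstream of the start of Y75B8A.23. Which promoter such an entry belongs to was not tested.

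The other thresholded sls-2 genes ranked lower. Pooled ranks were 990 at sls-2.7, 1131 at sls-2.14, 1741 at sls-2.15, 2156 at sls-2.13, 2229 at sls-2.3 and 2522 at sls-2.5. At sls-2.3 the replicates stood far apart, with ranks of 8615 in replicate 1 and 1026 in replicate 2.

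For the SL1 RNA genes, 0 of 12 annotated sls-1 genes had an entry within 500 bp, also with entries near tRNA genes included. Of these, 10 were identical copies of 1 sequence, and how the authors treated reads that match several places is not stated in the sources at hand. Among all snRNA genes, 10 of 44 with an identical copy elsewhere had a member entry, against 40 of 85 with a sequence found once (47.1%, interval 36.8 to 57.6). The 44 include the 12 sls-1 genes, so this count is not separate from theirs. All 20 annotated rRNA genes, which are also repeated, likewise had 0 entries within 500 bp. With the treatment of such reads unknown, the absence of entries at repeated copies cannot be read as absence of the protein.

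Among the spliceosomal snRNA genes, related copies differed widely in whether an entry lay beside them. Some of these copies are identical in sequence, such as the 14 named R07E5.16. The limit on reading absence at identical copies holds here too. Copies were grouped by at least 80% sequence identity, and bases known from other eukaryotes are given as background. A family of 23 copies, 22 of which hold ACAGAGA, the bases by which U6 RNA meets the 5′ splice site, had 5 copies with an entry and 3 with a thresholded one. The strongest of these, a copy named R07E5.16 (WBGene00014543) within dhc-4 on the same strand, had its entry at chrIII:10989510-10989750 with the summit 26 bp upstream. It ranked 90 in the pooled list, 76 in replicate 1 and 93 in replicate 2. The copy F54D8.7 had its summit 26 bp upstream too, 800 bp before the start of cox-6A, and ranked 684. Another copy with the name R07E5.16 (WBGene00014484) inside mpc-1, ranked 1905.

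A family of 13 copies, 12 of which hold ACTTACCTG, the bases at the 5′ end of U1 RNA, had 9 copies with an entry and 4 with a thresholded one. These 4 were sup-6, sup-39, T08G5.11 and F08H9.11, and mutations in sup-6 and sup-39 are known as suppressors. At sup-6 (WBGene00006315), at chrII:12944936-12945092, the summit lay 7 bp past the 5′ end and ranked 296 in the pooled list, 268 in replicate 1 and 377 in replicate 2. The strongest entries at sup-39, T08G5.11 and F08H9.11 ranked 1231, 2164 and 2471.

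Of the 12 copies in the next family, 11 hold GCCTTTTAC, the loop of U5 RNA, 5 had an entry and 2 a thresholded one. At F38E11.11 (WBGene00014366), at chrIV:9444491-9444641, the summit lay 23 bp upstream and ranked 226, 267 and 216 in the pooled list and replicates 1 and 2. This summit also stood 579 bp upstream of the start of F38E11.9. At F32B5.9, inside cpz-1 on the opposite strand, the summit lay 15 bp upstream and ranked 669. A family of 5 copies around T11F9.15 had 1 thresholded copy, T11F9.15 (WBGene00014291) itself, at chrV:11979971-11980144. Its summit lay 46 bp upstream and 349 bp upstream of snr-4, an Sm protein gene, and it ranked 172, 202 and 150.

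A family of 19 copies around C47F8.9, a name that 7 identical genes share, held the Sm-like bases ATTTTTG in all copies. Of the 19, 6 had an entry and 1 a thresholded one, of rank 1831. The summit at that copy (WBGene00014311) lay 603 bp upstream of the start of the histone gene his-42. A family of 6 smy copies had 3 with an entry and 0 with a thresholded one, the best ranking 21238. Of the smy genes outside this family, smy-8, smy-9 and smy-10 had no thresholded entry. In contrast, smy-1 had one, as did smy-2 (best rank 596) and smy-3 (2808), which are annotated as snoRNA genes. The 8 families of 5 or more copies held 103 of the 129 snRNA genes and 21 of the 24 with a thresholded entry. The other 3 were M163.13, with its own summit 20 bp upstream at rank 2121, and smy-1 and mir-1831, whose entries are those of the neighbouring smy-2 and the overlapping sup-39. Family counts take any member entry within 500 bp of a copy, so neighbouring genes can share 1 entry. They leave out an entry of rank 19476 beside C53D6.12, a copy of the GCCTTTTAC family close to a tRNA gene.

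**Figure D3:**
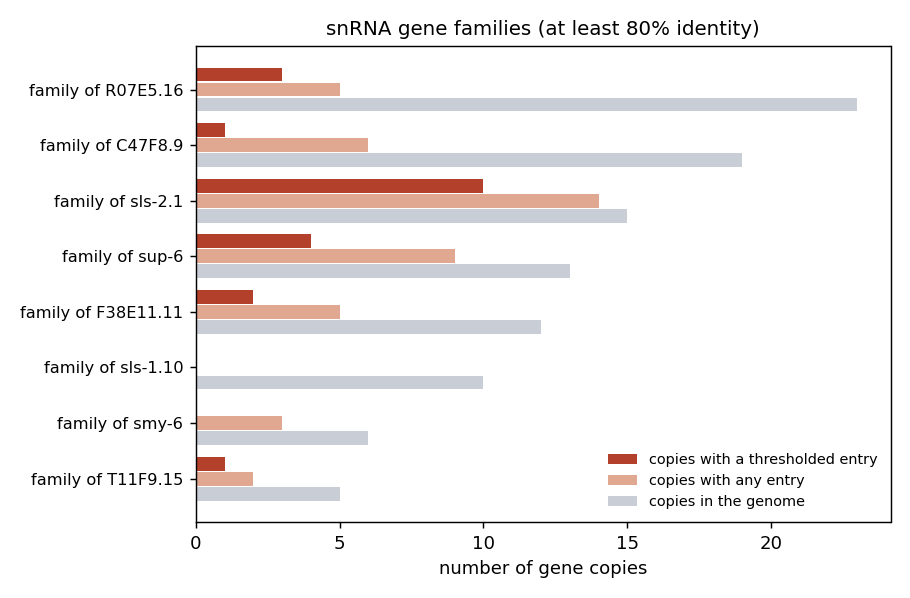
Gene copies per snRNA family of 5 or more copies (x axis, number of copies), each family named by its member with the strongest entry where it has one. Bars give the copies with a thresholded member entry, with any member entry, and in the genome; the sls-2.1 family has 10, 14 and 15, and the family of identical sls-1.10 copies has 0, 0 and 10.

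At 13 genes, 9 snRNA and 4 snoRNA, the gene was nearest to 2 thresholded members. In 12 pairs 1 summit lay before the 5′ end of the gene and the other past it, at T08G5.11 both lay past it, and the median spacing over the 13 was 205 bp. At sls-2.1 the second summit lay 188 bp past the 5′ end and ranked 299. At sls-2.4 it lay 177 bp past and ranked 138, and at T11F9.15 it lay 159 bp past and ranked 733. In 12 pairs both summits matched a single entry of replicate 1 and in 11 a single entry of replicate 2. In the whole pooled list no neighbouring nuclear summits stood closer than 199 bp. Of the 13 spacings 11 were within 20 bp of that smallest value, beside 13.2% of all neighbouring summits up to 1000 bp apart. Each pair counts as 2 members. With 1 entry per gene, the strongest, 118 of 240 genes (49.2%) had a thresholded one. Keeping the strongest entry favours thresholded ones, and no background share was counted in this way.

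Among the snoRNA genes, the member of highest rank was beside F54E7.10 (WBGene00044941), at chrIII:5679015-5679281. It ranked 42 in the pooled list, 30 in replicate 1 and 45 in replicate 2. The snoRNA gene lies within rps-12, a small-subunit ribosomal protein gene, and the summit stood 248 bp upstream of the snoRNA gene and 125 bp upstream of the start of ska-3. The entry beside Y53F4B.47 (WBGene00045141), a snoRNA gene in no protein-coding gene, lay at chrII:15025853-15026092 with its summit 80 bp upstream and ranked 78, 60 and 85. It was also 141 bp upstream of the start of cmtr-1, whose name stands for a cap methyltransferase. Hosted and free-standing snoRNA genes thus both appeared at the top.

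Among the named snoRNA genes, H06I04.9 and D1007.20 also lay within ribosomal protein genes. The entry beside H06I04.9 (WBGene00045092), within ubl-1, a ubiquitin-like fusion to a ribosomal protein, lay 388 bp upstream of the snoRNA gene and 212 bp upstream of the ubl-1 start. It ranked 144, 110 and 197. The entry beside D1007.20 on chromosome I (WBGene00045094) lay 399 bp upstream of it and 265 bp upstream of its host rpl-24.1, and ranked 193, 259 and 147. Of 21 snoRNA or snRNA genes hosted by a ribosomal protein gene, 5 had a thresholded entry (23.8%, interval 10.6 to 45.1). This is close to the 39 of 199 genes with another host on the same strand (19.6%, interval 14.7 to 25.7) and to the 25.7% of all 475 genes. All 5 of these entries lay in protein-coding promoters, at a median of 388 bp upstream of the snoRNA gene, and 0 of them within 100 bp. For 40 thresholded members with another host on the same strand, 10 lay in promoters, 22 within 100 bp upstream, and the median upstream distance was 50.5 bp. Which promoter such an entry belongs to was not tested.

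Free-standing snoRNA genes at the top included F59C6.15 on chromosome I (WBGene00045164), with a summit 86 bp upstream and ranks of 147, 154 and 158 in the pooled list, replicate 1 and replicate 2. This summit also stood 808 bp upstream of the start of F59C6.18, in its promoter window. The entry beside F37F2.4 on chromosome I (WBGene00219937) lay 277 bp upstream of it, 286 bp upstream of F37F2.2, and ranked 162, 121 and 214. The one beside F09G2.14 (WBGene00219888), at chrV:7196557-7196734, lay 68 bp upstream of it, 268 bp upstream of F09G2.2, and ranked 185, 235 and 144. Beside F39B2.14 on chromosome I (WBGene00219940), which lies within tmem-107, the summit stood 119 bp upstream and 58 bp before the start of tmem-107, and ranked 176, 136 and 236. The genes with the most entries, D2023.18 with 4, C04A2.16 with 3 and F16A11.12 with 3, had few thresholded ones: D2023.18 and F16A11.12 had 0, and C04A2.16 had 1 of rank 2047. In all 5 genes had 3 entries, and the pair named are those of highest rank among them.

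Counted by gene, 250 of 475 snoRNA and snRNA genes had a member entry within 500 bp and 122 had a thresholded one (25.7%, interval 22.0 to 29.8). With entries near tRNA genes included, 253 genes had an entry and 124 a thresholded one (26.1%). By biotype this was 98 of 346 snoRNA genes (28.3%, interval 23.8 to 33.3) and 24 of 129 snRNA genes (18.6%, interval 12.8 to 26.2). With the same window and all nuclear entries, tRNA genes gave 33.0% of 612, lincRNA genes 14.9% of 194, miRNA genes 11.1% of 261, other ncRNA genes 8.99% of 7764 and protein-coding starts 9.74% of 19973. The piRNA genes gave 0.859% of 15363. Gene length, clustering and copy number differ between these classes, so the shares stand side by side without a test.

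Free-standing snoRNA genes, those in no protein-coding gene, had a thresholded entry in 51 of 130 cases (39.2%, interval 31.3 to 47.8). Those on the same strand within a protein-coding gene had one in 36 of 183 cases (19.7%, interval 14.6 to 26.0), and those on the opposite strand in 11 of 33. The first 2 intervals do not overlap. The snRNA genes gave 14 of 66 when free-standing (21.2%, interval 13.1 to 32.5) and 8 of 37 on the same strand (21.6%, interval 11.4 to 37.2), so their intervals overlap. Searching gene ends for box C (TGATGA) with box D (CTGA), or for ACA 3 bases before the end, placed 14 snoRNA genes in the first class and 58 in the second. Of these, 7 and 19 had a thresholded entry, and 274 snoRNA genes fell in neither class, of which 72 had one.

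By chromosome, members on X gave the lowest share, 4 of 21 (19.0%, interval starting at 7.67), beside 9.04% of all entries on X. The autosomes gave shares from 36.1% on I (30 of 83) to 46.9% on II (30 of 64). The interval for X overlaps those of all 5 autosomes.

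The GCGGAAC element, printed above, occurred on the sense strand in the 100 bases before 56 of the 475 genes, 24 snoRNA and 32 snRNA, and before 0.160% of 19973 protein-coding starts. It began at a median of 62.5 bp upstream. A second string, TGTCGG, occurred before 74 genes at a median of 47 bp and before 0.781% of protein-coding starts. Of the genes with GCGGAAC, 23 of 56 had a thresholded entry (41.1%, interval 29.2 to 54.1). Of the snoRNA genes alone it was 14 of 24 with GCGGAAC (58.3%), against 84 of 322 without (26.1%). Of the snRNA genes it was 9 of 32 with GCGGAAC (28.1%), against 15 of 97 without (15.5%). Those 32 belong to families of related copies, 10 of them to the ACTTACCTG family, so family make-up is part of both snRNA shares. These motifs were chosen after reading the sequences upstream of thresholded members, so the shares describe the choice as well as the genes.

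The B box match GTTCNANNC occurred before 34 genes, 33 snoRNA and 1 snRNA, at a median of 14.5 bp upstream, and before 1.43% of protein-coding starts. Of these genes 20 of 34 had a thresholded entry (58.8%, interval 42.2 to 73.6). GTTCNANNC, a looser form of the planned GTTCGANNC, was also chosen after the data were seen. Its share therefore describes the choice as well as the genes. The A-box-like TGGCNNAG occurred before 29 genes, all snoRNA, at a median of 59 bp upstream, and 17 of these had a thresholded entry. No gene held both GTTCNANNC and GCGGAAC. The 385 genes with neither had a thresholded entry in 79 cases (20.5%, interval 16.8 to 24.8), so most genes with a thresholded entry (79 of 122) held neither string exactly.

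**Figure D4:**
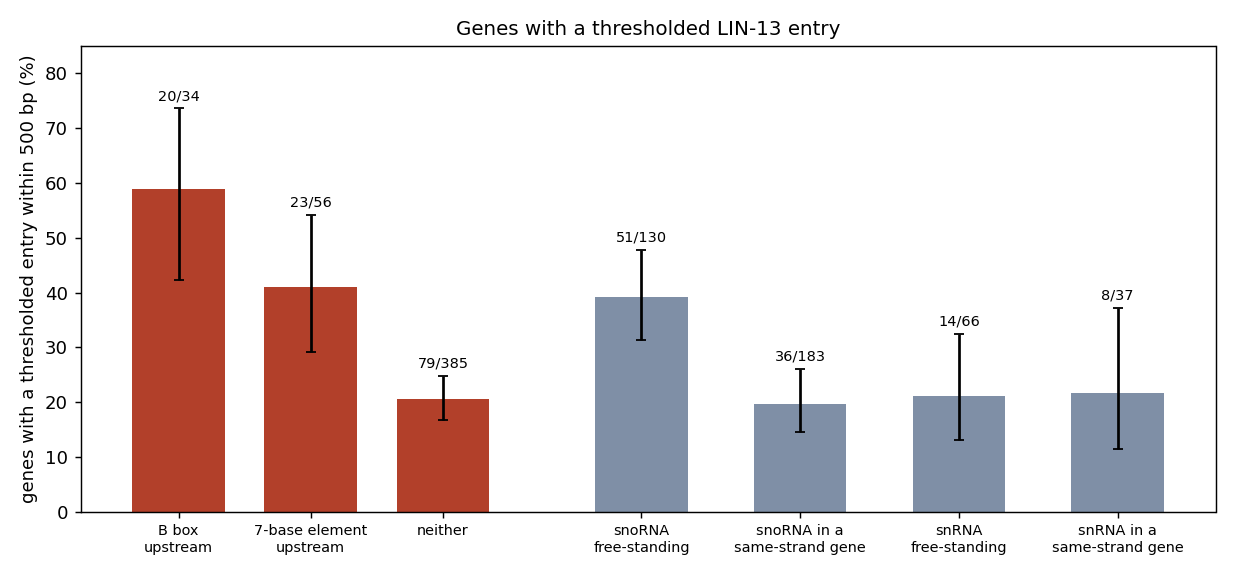
Share of genes with a thresholded member entry within 500 bp (y axis, %), for genes grouped by the sequence before them (left, with the 7-base element being GCGGAAC) and by biotype and position within protein-coding genes (right; genes on the opposite strand are not drawn). Error bars are Wilson 95% intervals and numbers are counts. The B box group stands at 58.8%, the GCGGAAC group at 41.1% and the group with neither at 20.5%. Both elements were chosen after the data were seen, so the shares on the left describe the choice as well.

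Allowing 1 mismatch at a set place raised these numbers. GCGGAAC beginning 55 to 75 bp upstream with at most 1 mismatch was found at 36 of 122 genes with a thresholded entry (29.5%), 17 of 128 with other entries only (13.3%), 34 of 225 without a member entry (15.1%) and 1.10% of protein-coding starts. GTTCNANNC beginning 9 to 25 bp upstream with at most 1 mismatch was found at 37 (30.3%), 21 (16.4%), 22 (9.78%) and 7.28% of the same sets. The windows were placed after the exact matches were seen. Exact GCGGAAC in that place was also present at 22 genes without a member entry.

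Counted from the summits instead of the genes, windows reaching 75 bp to either side of the summit held GCGGAAC on either strand in 18 of 131 thresholded members (13.7%, interval 8.87 to 20.7) and 4 of 190 other members (2.11%), beside 0.867% of the other thresholded nuclear peaks and 0.697% of all nuclear entries. The tRNA B box core GTTCGANNC was in 14 of 131 thresholded members (10.7%, interval 6.47 to 17.1) and 4 of 190 others (2.11%), beside 3.85% and 1.65%. The looser GTTCNANNC, which includes it, was in 23 of 131 and 19 of 190, beside 7.25% and 5.15%. Every member was over 500 bp from an annotated tRNA gene.

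Other strings behaved differently in the same windows. GAGAGA was in 22.9% of thresholded members and 14.7% of other members, beside 36.3% of the other thresholded peaks and 14.5% of all nuclear entries. TTTGAA, a string like the CHR element of cell cycle genes, was in 15.3% and 29.5%, beside 28.6% and 43.1%. The E2F-like TTTCCCGC was in 0 of 131 thresholded members, which allows a share of up to 2.85% (Wilson upper bound). It was in 0 of 190 others, beside 1.98% of the other thresholded peaks and 0.871% of all nuclear entries. TATAAA was in 12.2% and 15.8%, beside 9.78% and 18.8%, so both member shares were below that of all nuclear entries. Base composition moved with these counts: GC content averaged 48.3% ± 7.90 (SD, n = 131) in thresholded members and 37.6% ± 7.998 (SD, n = 190) in other members, beside 43.5% ± 7.90 (SD, n = 2882) in the other thresholded peaks. Over all nuclear entries GC content averaged 34.1% ± 8.66 (SD, n = 29973). The part of GC content in the motif shares was not tested.

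The 2 replicates placed most thresholded members alike. Among the 3040 strongest entries of each replicate, as many as the thresholded list holds, 121 of the 131 overlapped one in replicate 1 and 124 one in replicate 2, by at least 1 bp. In both replicates it was 114 (87.0%, interval 80.2 to 91.7), and 0 were in neither. The other thresholded nuclear peaks gave 71.5% in both (interval 69.8 to 73.1), and the other members 16 of 190 (8.42%). Outside protein-coding promoters it was 59 of 72 thresholded members (81.9%, interval 71.5 to 89.1). That list rests on these same replicates, so the overlap describes the lists and is no independent check. With summits within 100 bp of each other in place of overlap, 102 of 131 members (77.9%) recurred in both.

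Over the 266 members with an entry in both full replicate lists, the ranks correlated with Spearman rho = 0.85. Within the 129 thresholded members of these it was 0.76, and within the 137 others 0.46. Entries share libraries and paired summits share a replicate entry, so these values are descriptions. Of the 266, 139 ranked higher in replicate 1 and 127 in replicate 2.

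**Figure D5:**
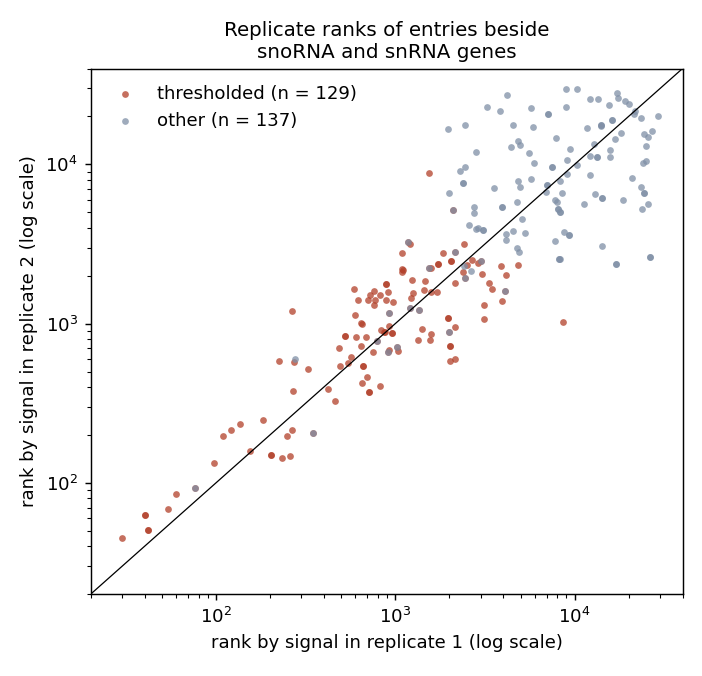
Rank by signal in replicate 1 (x axis, log scale) and replicate 2 (y axis, log scale) of the 129 thresholded and 137 other member entries found in both replicate lists, with the line of equal rank. Most thresholded entries lie near the line at low rank numbers, which are high signal, and the other entries scatter widely (rho 0.76 and 0.46).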

How the data were processed

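LIN-13 ChIP-seq peak lists from 2 biological replicates of whole L2 larvae were used, with fragments of 150 to 350 bp per the labels. Per the file listings, the thresholded list derives from the 2 replicate lists and the pooled list. The aligner, peak caller, their versions and the threshold of the irreproducible discovery rate are not stated in the sources at hand. Each entry has a signal value deposited by the authors, on a scale that is not given, so signal served only to rank entries within a list (ranks count from 1 at the highest signal). The deposited −log10 q value was not used. The deposited summit offset in bp was added to the entry's start. The replicate and pooled lists hold 30000 entries each and the thresholded list 3040, all among the pooled entries, of which 3013 are nuclear. The lists carry no read counts, so depth is unknown and limits no value in a known way.

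Coordinates are 1-based on ce11. Genes came from Ensembl release 115 for WBcel235, and 44 snoRNA or snRNA genes share a name with another. Copies were grouped by edit distance with single linkage. The members, lists and motifs were chosen with earlier results of these data known. Genes were named by a rule: the gene nearest to each of the 15 thresholded members of highest signal, up to 15 snRNA genes with a thresholded member, the genes of the 5 members just outside the list, their protein-coding neighbours, and the 3 genes with most entries (ties broken by rank). The genes of the 5 members just inside, the remaining snRNA genes with a thresholded entry, and Y75B12B.12, Y43F8C.22, M106.6, T03F7.8 and F01D5.12, whose sequences are shown, were added after their values were seen. Shares have Wilson 95% intervals and no test was run. The distance to the nearest gene was tested on planted positions with known answers. For promoter windows, only positions from a start to 1000 bp upstream of it were planted. The downstream side and positions outside the windows were not tested. The counting of motifs was not tested in this way. Alternatives were other distances, promoter windows, overlap rules and lists. Calculations used Python 3.11.15, pandas 2.3.3, numpy 2.4.6, scipy 1.17.1, edlib 1.3.9.post1 and matplotlib 3.10.9.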

Additional observations from a re-analysis of the deposited data

How the results depend on the processing

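Of 48 alternatives, 28 left the value within its interval or within 1.5 times its count. With summits within 250 bp, 47.6% of members were thresholded. With 1000 bp there were 534 members and 32.4% were thresholded. With summits inside the gene (0 bp) there were 48 members, 33.3% were thresholded, beside 16 genes, and 18.8% of the thresholded ones lay in promoters. With the stronger 1520 thresholded entries the share was 27.4%, beside 4.98% of all nuclear entries. Among settings added after seeing the data, it was 32.6% outside promoters and 74.0% within 1 to 100 bp upstream. With only the strongest entry per gene, a choice that favours thresholded ones, it was 49.2%. Promoter windows of other sizes held 24.4% (500 bp upstream to 100 bp downstream) and 62.6% (2000 to 500 bp) of thresholded members. Recurrence in both replicates was 77.9% with summits within 100 bp and 98.5% with any replicate entry. Against a single replicate, leaving out the other, it was 92.4% to 94.7%. Replicate rho was 0.76 over thresholded members and 0.79 outside promoters. GTTCNANNC in place of GTTCGANNC gave 17.6%. Taking each replicate's own list gave shares of thresholded members from 38.1% to 38.5%. No paired analysis was possible because the design has 1 group. Depth is unknown, and sequence found in several identical copies may lack entries for that reason alone, which was not tested.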

Other observations

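The rule on tRNA genes left out 4 entries within 500 bp of a snoRNA or snRNA gene. Of these, 2 were thresholded, beside sls-2.9 (pooled rank 757, with a tRNA gene 73 bp from the summit) and beside C16D9.10 (rank 1084, with one at 403 bp). The other 2, beside M163.14 and C53D6.12, ranked 4079 and 19476.

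Some thresholded peaks away from snoRNA, snRNA and tRNA genes also held a B box match. Among 1078 thresholded peaks that were not members, lay outside protein-coding promoters and stood over 500 bp from a tRNA gene, 31 (2.88%) held GTTCNANNC within 75 bp of the summit, beside 23.6% of thresholded members outside promoters. Of the 31, 6 lay within 500 bp of a gene annotated as ncRNA, and the strongest ranked 285.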
